A study of Mus musculus with 18 samples.

Results

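The Mef2 transcription factor family was followed through 3 count tables of mouse hippocampal messenger RNA as the rows named Mef2a, Mef2c or Mef2d. These 3 genes, of 11738 gene symbols over all tables, had 3 rows in the deletion table (10541 rows), 3 in the tTA::miR132 table (10799 rows) and 13 in the tTA::miR212 table (11706 rows for 4618 symbols). The family was chosen by a measured value, the Mef2c fold change under tTA::miR132, so every member value of that comparison is given as a description without a test. Mef2b was not among the rows of the 3 tables and was not analysed here. The levels of miR-132 and miR-212 were not analysed here either, so the genotype labels have no check from the targeted gene.

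All animals were C57BL/6 mice. The deletion group carried CaMKII-Cre::miR-132/212f/f, in which Cre under a CaMKII promoter removes the miR-132/212 locus, mainly from excitatory forebrain neurons. The other changed groups were tTA::miR132 and tTA::miR212 animals, which carry a tetracycline transactivator and a transgene for the named microRNA. Each of the 3 groups had its own nontransgenic controls, which lacked the driver as well as the microRNA change. Ages, and the driver and any doxycycline schedule of the tTA animals, were not given in the sources used here. Per the design text, cDNA of 6 animals was pooled into 3 replicates per group, so a library is a pool and not 1 animal. The labels describe 18 samples in 6 groups, and 14 libraries were analysed: 2 against 2 in the deletion and tTA::miR132 tables and 3 against 3 in the tTA::miR212 table. Because the column names tie a library to its group but not to an individual sample, libraries are numbered here as in those names.

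MEF2 proteins are MADS-box transcription factors that bind an A/T-rich element and recruit either activators or class IIa histone deacetylases. In neurons, calcium entry activates calcineurin, which dephosphorylates MEF2, and CaM kinases, which send the deacetylases out of the nucleus. Mef2c is abundant in excitatory neurons of the forebrain, where it restrains the number of excitatory synapses, and it is also made in microglia and endothelium. Mef2a and Mef2d are made in most cells, and in neurons they act in synapse maturation and survival. miR-132 and miR-212 come from 1 locus that CREB activates, and a microRNA lowers a messenger RNA mainly through pairing of its seed, bases 2 to 8, with the 3′ UTR.

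The mature sequences show why both transgenes are read against the same sites: the seeds, in capitals, are identical (RefSeq miRNA table, build GRCm38.p6).
mmu-miR-132-3p: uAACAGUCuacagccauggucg
mmu-miR-212-3p: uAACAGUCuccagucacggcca
The 3′ UTRs of the annotated Mef2 transcripts (GENCODE vM1 on NCBIM37, which is mm9, the build of the tables) were searched on the transcript strand for GACTGTT, the complement of the seed, for GACTGTTA, in which an A follows it, and for ACTGTTA, which overlaps the latter. Each of Mef2a and Mef2c had 1 match of at least 7 bases, shown with 10 bases on either side and the match in capitals.
Mef2a, 8-base match, chr7:74377038-74377045, minus strand: ctgaatatctGACTGTTAatcttccccc
Mef2c, 7-base match, chr13:83803944-83803950, plus strand: agcagtatagGACTGTTgaacagcctg
The Mef2a match began at base 2709 of the longest 3′ UTR and lay in 3 of the 6 protein-coding transcripts. The Mef2c match began at base 1708 and lay in 4 of 5. Mef2d had no match of 7 or 8 bases, only 1 of 6 bases. Among 19915 genes the longest 3′ UTR held GACTGTT in 10.013% and GACTGTTA in 2.144%. ACTGTTA without the preceding G was not counted in these shares. Long 3′ UTRs hold more: among 1646 genes with 3000 to 5000 bases of 3′ UTR the shares were 27.217% and 5.772%. A match is a description of the letters and not evidence of pairing.

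Depth ran from 8190899 to 14772907 counts per library in the deletion and tTA::miR132 tables and from 3140536 to 3739682 in the tTA::miR212 table, where reads of exons shared between transcript rows can be counted more than once. Deletion library 1 stood apart: 1047 of its 10541 genes (9.933%) were at 0, against 73 to 120 genes in the other 3 libraries of that table. Spread between libraries of a group, as edgeR's biological coefficient of variation, reached 74.2% for the deletion, 60.7% for tTA::miR132 and 8.58% for tTA::miR212. With edgeR's quasi-likelihood test and Benjamini-Hochberg adjustment, 0% of genes passed in any of the 3 comparisons, so no gene below is called changed. At an unadjusted p under 0.05, edgeR counted 88 of 10487 genes (0.839%), 303 of 10734 (2.82%) and 260 of 4618 (5.63%), in that order. DESeq2 called 5, 39 and 0 genes, and limma-voom 1, 3 and 0. The p-values measure the spread between pools only. Of the dentate granule cell markers, which check the hippocampal label, all 5 had counts in the first 2 tables (summed to 289 to 475 CPM) and 3 of 5 were measured in the last (82.3 to 117 CPM), with Prox1 and Tdo2 at 0 in deletion library 1.

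The order of the Mef2 genes in control hippocampus was not the same in the tables. Levels are compared between genes as CPM (the row's count as a share of the library total, scaled to 1000000) per kilobase of exon inside the coordinates listed for the row. For a RefSeq row the exons of all annotated coding and nonsense-mediated decay transcripts of the gene were joined. For an Ensembl row only its own exons were taken, so the lengths are unlike between tables. The length also assumes that reads outside the listed coordinates were not counted, which is not stated. For Mef2c in the tTA::miR212 table it is 2533 of the transcript's 6451 exon bases, so the place of Mef2c in that order rests on this assumption. In the deletion table's controls Mef2c was highest at 63.5 ± 7.66 (SD, n = 2), followed by Mef2a at 14.7 ± 1.44 and Mef2d at 6.46 ± 1.10, with no overlap between neighbours in that order. In the tTA::miR132 table's controls Mef2c had 71.9 ± 14.2, Mef2d 11.7 ± 6.26 and Mef2a 8.79 ± 1.31. There Mef2d and Mef2a did not differ beyond their spread. In the tTA::miR212 table's controls Mef2d led with 33.1 ± 2.03 (n = 3), ahead of Mef2c with 26.4 ± 3.79 and Mef2a with 15.1 ± 0.843, again with no overlap.

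The rows of the tables end at different places in these genes. The first 2 tables list RefSeq genes. Their Mef2c row, NM_001170537 at chr13:83643033-83806684 on the plus strand, reaches the annotated 3′ end. Their Mef2a row, NM_001033713 at chr7:74378717-74517744 on the minus strand, stops 2668 bases before it. Their Mef2d row, NM_133665 at chr3:87946317-87973089 on the plus strand, stops 2919 bases before it. The tTA::miR212 table lists Ensembl transcripts and is the reverse: Mef2a and Mef2d reach the end, at chr7:74376049-74517744 and chr3:87946294-87976008, and Mef2c, at chr13:83643194-83802927, stops 3757 bases before it. The Mef2a seed match, 989 bases before the end, therefore lies outside the coordinates of the RefSeq row, and the Mef2c match, 2734 bases before the end, lies outside those of the Ensembl rows. If reads were counted only inside the listed coordinates, those from the last part of a 3′ UTR enter a level only where the row covers it. How reads were counted is not stated, and all Ensembl rows of each Mef2 gene list the same start and end. First-strand synthesis was primed with oligo(dT).

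**Figure D1:**
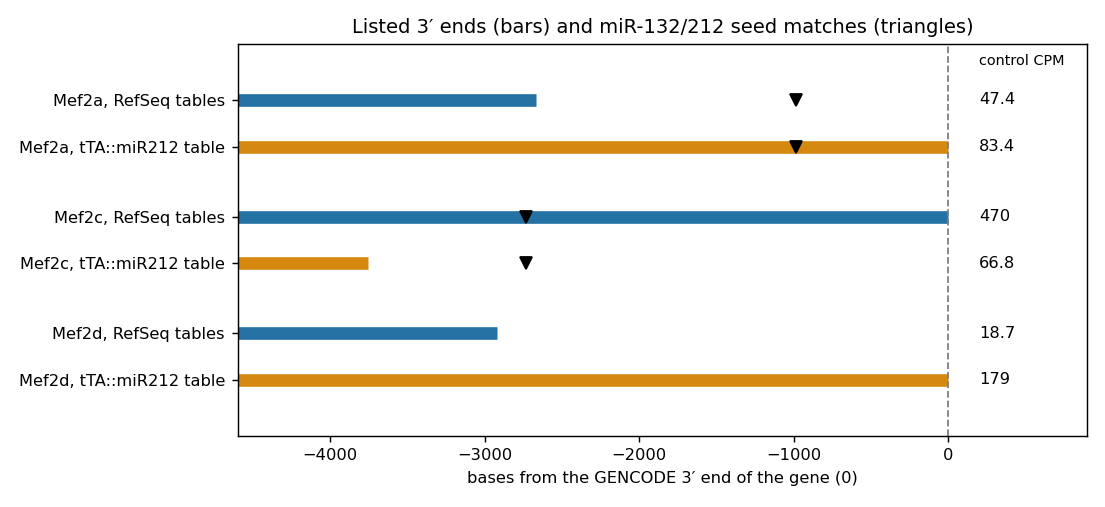
Position along each Mef2 gene in bases from the GENCODE 3′ end (0, dashed line), with bars for the exonic region up to the 3′ end listed in the RefSeq tables (blue) and in the tTA::miR212 table (orange) and triangles for the miR-132/212 seed matches. The control means at the right are CPM in the deletion table (RefSeq rows) and the tTA::miR212 table; in each gene the row that reaches the 3′ end has the higher CPM.

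Levels across these tables were normalized separately and are set side by side only as a description. Over 4184 genes, log2(CPM + 1) of the mean control level in the deletion table minus that in the tTA::miR212 table had a median of 0.94 (quartiles 0.20 and 1.58). Among 216 genes whose RefSeq 3′ end lay at least 1000 bases further the median was 1.58, among 3124 genes with ends within 100 bases it was 0.96, and among 447 genes whose RefSeq end was at least 1000 bases shorter it was 0.27. Mef2c had 2.80, higher than 98.66% of genes, and Mef2a -0.80, higher than 8.25%. Mef2d had -3.19, higher than 0.48% of genes. The 3 members thus lie on the side of the median that their own listed ends fall on. In size, Mef2d lay below the lower quartile (-0.88) of the genes with a shorter RefSeq end. Mef2c lay above the upper quartile (2.24) of those with a further end, and Mef2a lay within the quartiles of its class. The controls of these tables are different mice, and the part of each in these differences was not tested.

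Under tTA::miR132, Mef2c was lower and Mef2a higher than in every control library, and Mef2d overlapped. For Mef2c, tTA::miR132 libraries 1 and 2 had 342 and 334 CPM (5050 and 2931 counts) and the controls 606 and 457 CPM (6000 and 3794 counts). Both transgenic libraries lay close together and below both controls. The log2 fold change of Mef2c was -0.69 (SE 0.19), a fold of 0.619. For Mef2a, the widely made member with the 8-base match, the transgenic libraries had 50.0 and 45.1 CPM (738 and 396 counts) against 25.4 and 31.3 CPM (251 and 260 counts). Both transgenic libraries lay above both controls, with a log2 fold change of 0.70 (SE 0.55). For Mef2d the transgenic libraries had 10.2 and 23.5 CPM (151 and 206 counts) and the controls 46.8 and 21.1 CPM (463 and 175 counts). Transgenic library 2 lay above control 2, and the log2 fold change was -1.05 (SE 0.77), or -0.40 without control library 1 and -1.75 without transgenic library 2. Of all genes in that comparison, 14.3% had both transgenic libraries below both controls and 18.8% had both above, and since the contrast chose the family, nothing is read from the members' place among them. A log2 change as large in size as that of Mef2c was found for 27.46% of genes, of Mef2a for 26.96% and of Mef2d for 15.19%. For Mef2a the coordinates listed in this comparison leave out the part of the 3′ UTR that holds the seed match. Whether reads from that part were counted is not known. In bulk tissue, fewer cells of a type and less RNA per cell cannot be told apart.

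Beside the Mef2c and Mef2a values stand the marker sums of several cell types. The summed CPM of 5 excitatory-neuron markers (Slc17a7, Camk2a, Neurod2, Neurod6, Nrgn) was 3513 to 3954 in the tTA::miR132 libraries and 4053 to 4321 in the controls. Of these markers 0 of 5 lay above every control (all genes 18.8%) and 1 below (14.3%). The 6 microglia markers summed to 320 to 411 against 220 to 389 CPM, with Aif1 at 0 in control library 2. The 5 endothelial markers summed to 70.8 to 89.9 against 67.6 to 125 CPM. The 6 interneuron markers summed to 1586 to 1909 against 1532 to 1694 CPM. The 6 measured of 7 choroid plexus markers summed to 2923 to 4176 against 3919 to 5265 CPM, with 0 above (all genes 18.8%) and 2 below (14.3%) every control. The 4 measured of 5 neocortex markers, which would mark tissue beyond the hippocampus, summed to 176 to 226 against 92.5 to 152 CPM, with Cux2 at 0 in control library 2. The 5 oligodendrocyte markers summed to 4184 to 4322 against 3462 to 3630 CPM, with 3 markers above (all genes 18.8%) and 1 below (14.3%) every control. Their part in the Mef2c and Mef2a values was not tested.

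In the deletion table the controls lay close together and the deletion libraries far apart, and no member passed the test. For Mef2c, deletion libraries 1 and 2 had 655 and 350.2 CPM (6162 and 3398 counts) and the controls 429.7 and 509.8 CPM (4053 and 4176 counts). Library 1 lay above both controls and library 2 below both. The fitted log2 fold change came to 0.13 (SE 0.35; edgeR adjusted p = 0.999). For Mef2a the same libraries had 36.9 and 64.8 CPM (347 and 629 counts), against 44.1 and 50.7 CPM (416 and 415 counts). Here library 1 lay below both controls and library 2 above both, the opposite sides to Mef2c, with a log2 fold change of 0.12 (SE 0.52; edgeR adjusted p = 0.999). For Mef2d the deletion libraries had 3.51 and 13.5 CPM (33 and 131 counts) and the controls 21.0 and 16.5 CPM (198 and 135 counts). Both deletion libraries lay below both controls, as they did in 18.0% of all genes, with a log2 fold change of -1.14 (SE 1.40; edgeR adjusted p = 0.999).

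The single deletion libraries decide these values. Without deletion library 1, the one with many genes at 0, the fit gave a log2 fold change of -0.44 (SE 0.23; edgeR adjusted p = 0.765) for Mef2c, 0.44 (SE 0.41; edgeR adjusted p = 0.920) for Mef2a and -0.48 (SE 0.75; edgeR adjusted p = 0.957) for Mef2d, and 0.0763% of all genes passed. Without library 2 it was 0.55 (edgeR adjusted p = 0.0286) for Mef2c, -0.29 (edgeR adjusted p = 0.646) for Mef2a and -2.35 (edgeR adjusted p = 0.0288) for Mef2d, in a fit where 43.0% of all genes passed. In each of these fits the lone deletion library is assumed to vary like the controls. The authors' deposited table gave q values of 4.92e-16 for Mef2c, 0.0045 for Mef2a and 0.0381 for Mef2d in this comparison, and q under 0.05 for 54.33% of its rows. None of the cell type markers passed the test. Excitatory-neuron markers summed to 4193 to 5522 CPM in the deletion libraries and 3479 to 3943 in the controls. Of these markers 2 of 5 lay above every control (all genes 14.3%) and 0 below (18.0%). Endothelial markers summed to 123 to 133 against 70.0 to 93.5 CPM, with Cldn5 and Cdh5 at 0 in deletion library 1. Microglia markers summed to 291 to 414 against 325 to 331 CPM, on both sides of the controls, and choroid plexus markers to 509 to 1739 against 4467 to 4966 CPM, with Otx2 at 0 in both deletion libraries and Folr1 and Clic6 at 0 in library 1. Their part in the member values was not tested.

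**Figure D2:**
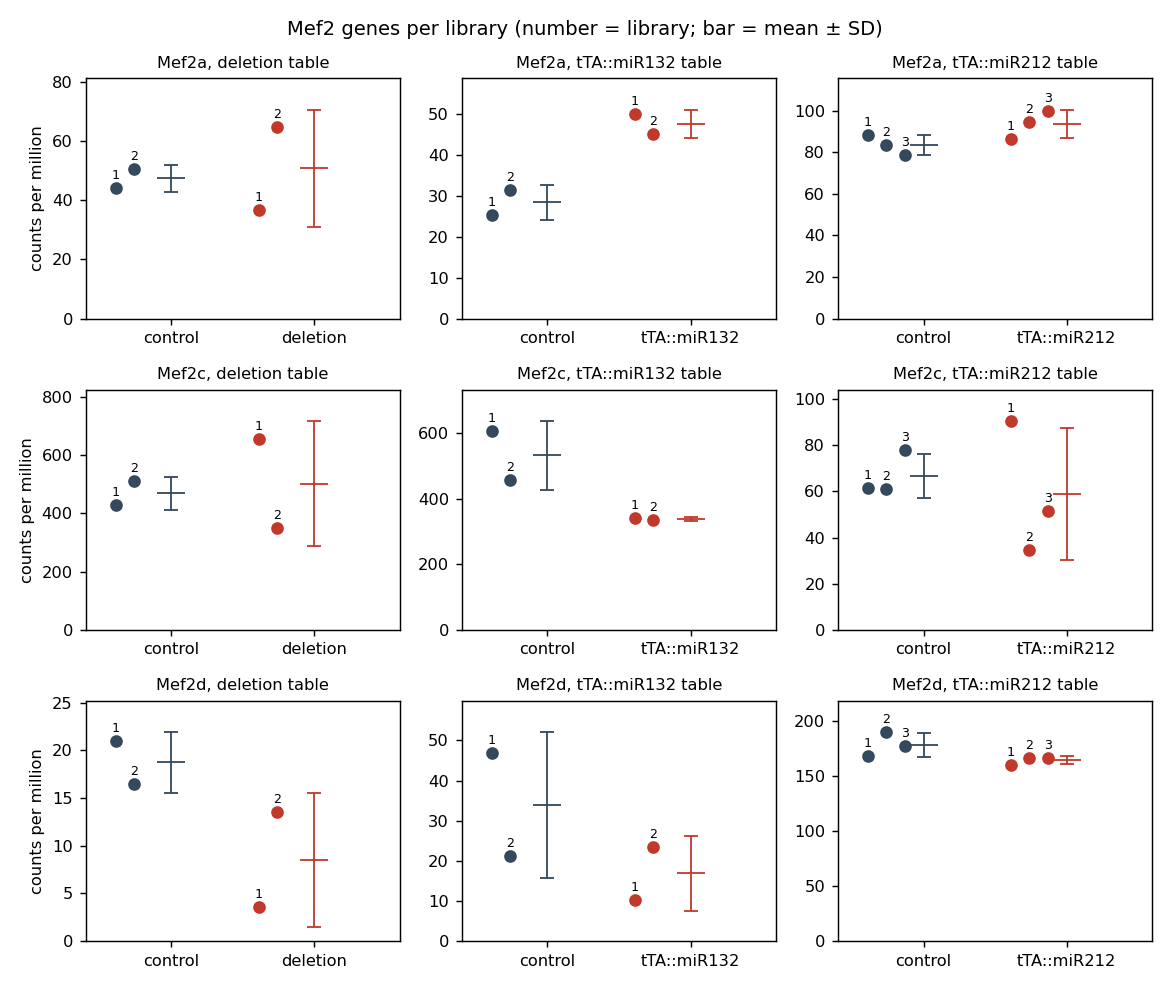
CPM of each Mef2 gene (rows of panels) in every library of each table (columns of panels), with library numbers on the points and the mean ± SD beside them (n = 2 per group, 3 in the tTA::miR212 table, where the transcript row with the highest mean count is shown). Mef2c under tTA::miR132 lies at 342 and 334 CPM, below both controls, while the deletion libraries of Mef2c, at 655 and 350.2 CPM, lie on either side of theirs.

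Under tTA::miR212 none of the 3 genes passed the test, and the changes of Mef2a and Mef2d were small, with folds of 1.12 and 0.917. In the row with the highest mean count, ENSMUST00000109560, Mef2c had 90.6, 34.8 and 51.4 CPM in tTA::miR212 libraries 1, 2 and 3 (285, 130 and 186 counts) and 61.3, 61.1 and 77.8 CPM in the controls (201, 192 and 247 counts). Library 1 lay above all controls and libraries 2 and 3 below all of them, and the groups overlapped. The fitted log2 fold change came to -0.20 (SE 0.40; edgeR adjusted p = 0.988). It was -0.64 (SE 0.17; edgeR adjusted p = 0.171) without library 1 and 0.08 (SE 0.25; edgeR adjusted p = 0.976) without library 2. Without control library 3 it was -0.08 (SE 0.48).

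For Mef2a, row ENSMUST00000156690, the transgenic libraries had 86.1, 94.7 and 99.7 CPM (271, 354 and 361 counts) and the controls 88.1, 83.4 and 78.8 CPM (289, 262 and 250 counts). All 3 lay above the control mean, and library 1 lay below control 1. The fitted log2 fold change came to 0.16 (SE 0.09; edgeR adjusted p = 0.903). For Mef2d, row ENSMUST00000001455, the transgenic libraries had 160.2, 167 and 167 CPM (504, 623 and 603 counts) and the controls 168, 190.1 and 177 CPM (552, 597 and 563 counts). Every transgenic library lay below every control, as in 5.33% of all genes, with a log2 fold change of -0.12 (SE 0.08; edgeR adjusted p = 0.913), or -0.07 (SE 0.09) without control library 2. The authors' deposited table gave q values of 1 for Mef2a and Mef2c and 0.954 for Mef2d, with q under 0.05 for 0.06% of its rows. The summed excitatory-neuron markers were 3067 to 3366 CPM in the transgenic libraries and 3308 to 3463 in the controls. The 5 astrocyte markers summed to 745 to 901 against 656 to 748 CPM, with 3 markers above every control (all genes 6.02%) and 0 below (5.33%). The 3 measured microglia markers summed to 129 to 152 against 117 to 128 CPM. The 2 measured choroid plexus markers summed to 353, 19.8 and 309 CPM in transgenic libraries 1, 2 and 3 and to 117 to 348 CPM in the controls, the lowest sum being in library 2, where Mef2c was also lowest. Their part in the member values was not tested.

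In the tTA::miR212 table the 13 transcript rows had the sign of their gene's main row, with 1 Mef2d row close to 0. Rows of 1 gene share exons, so they are not separate measurements. All 6 Mef2a rows had positive log2 fold changes. These ran from 0.16 (SE 0.09) for the 5538-base ENSMUST00000156690 to 0.40 (SE 0.14; edgeR adjusted p = 0.926) for the 1828-base ENSMUST00000135493, which is annotated for nonsense-mediated decay. In 5 of the 6 rows every transgenic library lay above every control, against 5.86% of all rows. The 8-base seed match lies in the exons of ENSMUST00000156690, ENSMUST00000107476 and ENSMUST00000135493. The 3 rows without it, ENSMUST00000032776, ENSMUST00000072460 and ENSMUST00000076325, had log2 fold changes of 0.31, 0.31 and 0.32. In the row ENSMUST00000107476, with the match, it was 0.20 (SE 0.09). The count of ENSMUST00000076325, as a percentage of the longest row, was 37.6, 44.6 and 41.0% in the transgenic libraries and 36.3, 35.1 and 40.0% in the controls. These percentages overlapped.

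The 3 Mef2c rows had log2 fold changes of -0.20 (ENSMUST00000109560), -0.26 (ENSMUST00000005722) and -0.11 (ENSMUST00000091446), each with an SE of at least 0.287. None of their listed coordinates reaches the seed match. The 4 Mef2d rows had -0.12 (SE 0.07) for the 5401-base ENSMUST00000001455, -0.09 (SE 0.08) for ENSMUST00000119251, -0.06 (SE 0.10) for ENSMUST00000107559 and -0.00 (SE 0.11) for ENSMUST00000107558. In the first 2, every transgenic library lay below every control, against 5.19% of all rows. The last 2 are annotated with 12 bases of 3′ UTR and lack the long 3′ UTR of the first (3443 bases). In the fit over all rows, 0% of 11706 rows passed, and the edgeR adjusted p of the Mef2 rows lay between 0.926 and 0.998. The end of Mef2d overlaps the long noncoding RNA gene 1700113A16Rik on the opposite strand (chr3:87975482-87981707), and the strand setting of the counting was not given in the sources used here.

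**Figure D3:**
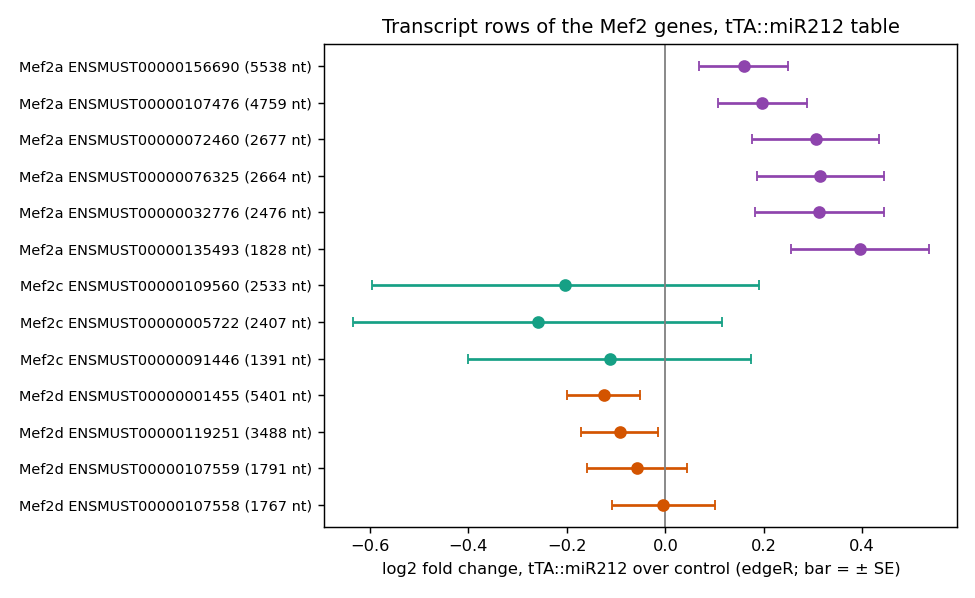
Log2 fold change (tTA::miR212 over control, edgeR, horizontal axis) of each of the 13 Mef2 transcript rows with bars of ± 1 SE, coloured by gene, with the exon length inside the listed coordinates in bases. The 6 Mef2a rows lie at 0.16 to 0.40, the 3 Mef2c rows lie below 0 with the widest bars, and the 4 Mef2d rows lie between -0.12 and -0.00.

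Across the 3 tables, whose controls are not shared, Mef2d was the member with 1 direction: its CPM was below the control mean in 7 of 7 changed libraries. Of 4152 genes tested in all 3 tables, 1.78% were below it in all 7 and 1.49% above it in all 7. The Mef2d count was noticed after the values were seen and includes the tTA::miR132 libraries of the contrast that chose the family, so it is a description only. The direction of the group means was thus the same in the deletion and in both transgenic groups. Under tTA::miR132 the groups overlapped, with transgenic library 2 at 23.5 CPM above control 2 at 21.1 CPM. Under tTA::miR212 the count uses the Mef2d row with the highest mean count. Another Mef2d row, ENSMUST00000107558, had a log2 fold change of -0.00 (SE 0.11) there. Mef2d's RefSeq row is listed only up to 2919 bases before the end of the gene and rests on 33 to 198 counts in the deletion table. Mef2a was above the control mean in 6 of 7 changed libraries and Mef2c below it in 5 of 7. The shares of all genes with such counts are not given here.

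The pathway around MEF2 was described from 4 lists, chosen with earlier results of these data known: 21 kinase and phosphatase genes and 19 co-regulators that act on MEF2, 16 genes reported as its neuronal targets, and 5 other MADS-box and partner genes. In each list and comparison 0 members passed the test. At an unadjusted p under 0.05, edgeR counted 2 of 21 kinases and phosphatases in the deletion (Ppp3cc, Prkd1), where 0.839% of all genes had such a p. Under tTA::miR132 (all genes 2.82%) it counted 1 of 21 kinases and phosphatases (Camk4) and 1 of 17 co-regulators (Cabin1). Under tTA::miR212 (all genes 5.63%) it counted 2 of 14 kinases and phosphatases (Mapk14, Ppp3cb) and 1 of 4 other MADS-box and partner genes (Mkl2).

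Among the kinases and phosphatases, 21 of 21 genes were measured in the deletion table. All deletion libraries lay above all controls in 7 (all genes 14.3%) and below in 2 (18.0%), with a median log2 fold change of 0.04 against -0.03 over all genes. The 3 with the smallest p were Ppp3cc, a calcineurin catalytic subunit, with 1.68 (SE 0.65), Prkd1, protein kinase D, which phosphorylates class IIa deacetylases, with 1.90 (SE 0.75), and Ppp3r1, the calcineurin regulatory subunit, with 0.48 (SE 0.21), each with an edgeR adjusted p of 0.999. Prkd1 had 45.2 and 36.0 CPM in the deletion libraries and 13.4 and 8.79 CPM in the controls. Ppp3cc had 140.1 and 45.4 CPM against 29.2 and 30.5 CPM, so its size came mainly from deletion library 1.

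Under tTA::miR132 the log2 fold changes of 16 of 21 kinases and phosphatases were below 0, with a median of -0.22 against -0.00 over all genes. Groups did not overlap in 3 above (all genes 18.8%) and 5 below (14.3%). Camk4, the nuclear CaM kinase that frees MEF2 from deacetylases, had 149.8 and 180.4 CPM against 220.0 and 256 CPM, a log2 fold change of -0.57 (SE 0.25; edgeR adjusted p = 0.997). Mapk14, the p38 kinase that phosphorylates MEF2, had 170.2 and 148 CPM against 84.7 and 114 CPM (0.63, SE 0.31; edgeR adjusted p = 0.997). Camk2b, a subunit of CaM kinase II, had -0.29 (SE 0.16).

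Under tTA::miR212, where 14 of the 21 were measured, 11 were below 0 with a median of -0.06, and 1 lay above and 1 below all controls (all genes 6.02% and 5.33%). Mapk14 was the latter: it had 51.2, 49.2 and 48.9 CPM against 67.4, 58.3 and 58.0 CPM (-0.31, SE 0.11; edgeR adjusted p = 0.801). Its value thus had the opposite sign to that under tTA::miR132, in tables with different rows of the gene, and the difference between the 2 comparisons was not tested. Ppp3cb, a calcineurin catalytic subunit, had 0.18 (SE 0.08; edgeR adjusted p = 0.876) and Ppp3r1 -0.11 (SE 0.07; edgeR adjusted p = 0.913).

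The co-regulators showed no common direction in the deletion table: 17 of 19 were measured, 8 of them below 0, with a median of 0.07, and all deletion libraries lay above all controls in 1 (all genes 14.3%) and below in 4 (18.0%). Hdac3, a deacetylase of the NCoR complex, had 0.46 (SE 0.31), the coactivator Ppargc1a 0.56 (SE 0.49) and Carm1, a methyltransferase that works with MEF2, -0.51 (SE 0.38). Under tTA::miR132, 12 of 17 were below 0 with a median of -0.14, 2 above (all genes 18.8%) and 5 below all controls (14.3%), where 50.1% of all genes were below 0. Cabin1, a calcineurin inhibitor that represses MEF2, had 55.9 and 75.9 CPM against 88.9 and 147 CPM (-0.89, SE 0.39; edgeR adjusted p = 0.997). Hdac9, a class IIa deacetylase, had 36.2 and 57.7 CPM against 71.9 and 75.2 CPM (-0.70, SE 0.45), and the corepressor Ncor1 had -0.30 (SE 0.23). Under tTA::miR212, 7 of 13 were below 0 with a median of -0.00. Carm1 (-0.12, SE 0.11), below all controls, was the only one of the 13 with groups that did not overlap (all genes 6.02% above and 5.33% below). Ppargc1a had -0.22 (SE 0.15).

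Of the reported MEF2 targets, 13 of 16 were measured in the deletion table, 5 of them below 0 with a median of 0.04, 0 above (all genes 14.3%) and 2 below all controls (18.0%). Bdnf, the neurotrophin gene, had 38.7 and 125 CPM against 162 and 169.7 CPM (-1.02, SE 0.54; edgeR adjusted p = 0.999). Kcna1, a potassium channel gene, had -0.33 (SE 0.24) and the immediate-early gene Jun 0.35 (SE 0.32). Without deletion library 1, an alternative chosen after seeing the data, 10 of 13 targets were below 0 with a median of -0.25 (all genes -0.01), and the remaining deletion library lay below both controls in 9 of 13, against 33.1% of all genes. In the same fit the library lay below both controls in 6 of 21 kinases and phosphatases (median 0.01). The same held for 8 of 17 co-regulators (median -0.09) and 2 of 3 other MADS-box and partner genes (median -0.36).

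Under tTA::miR132, 10 of 14 targets were below 0 with a median of -0.19, 2 above (all genes 18.8%) and 4 below all controls (14.3%), beside 50.1% of all genes below 0. Lgi1, a secreted synaptic protein gene, had 297 and 285 CPM against 215 and 211 CPM (0.41, SE 0.22), the zinc-finger gene Klf6 -0.51 (SE 0.33) and the immediate-early gene Egr1 -0.43 (SE 0.28), each with an edgeR adjusted p of 0.997. Under tTA::miR212, 9 of 13 were below 0 with a median of -0.08 (all genes 0.00), 1 lay below all controls (all genes 5.33%), and Klf6 was the 1 gene above all controls (6.02%), at 22.9, 21.7 and 30.9 CPM against 19.5, 18.5 and 18.6 CPM (0.41, SE 0.22; edgeR adjusted p = 0.901). Kcna1 had 0.13 (SE 0.09) and Jun 0.12 (SE 0.09). Among the other MADS-box and partner genes, Srf, the founding member of the MADS-box class, had -0.27 (SE 0.48) in the deletion. It had -0.16 (SE 0.57) under tTA::miR132 and -0.22 (SE 0.12, edgeR adjusted p = 0.901) under tTA::miR212. Its coactivator Mkl2 had -0.12, -0.11 and -0.18 in the same order, and Mkl1 1.01 (SE 0.64) in the deletion and 0.18 (SE 0.12) under tTA::miR212.

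**Figure D4:**
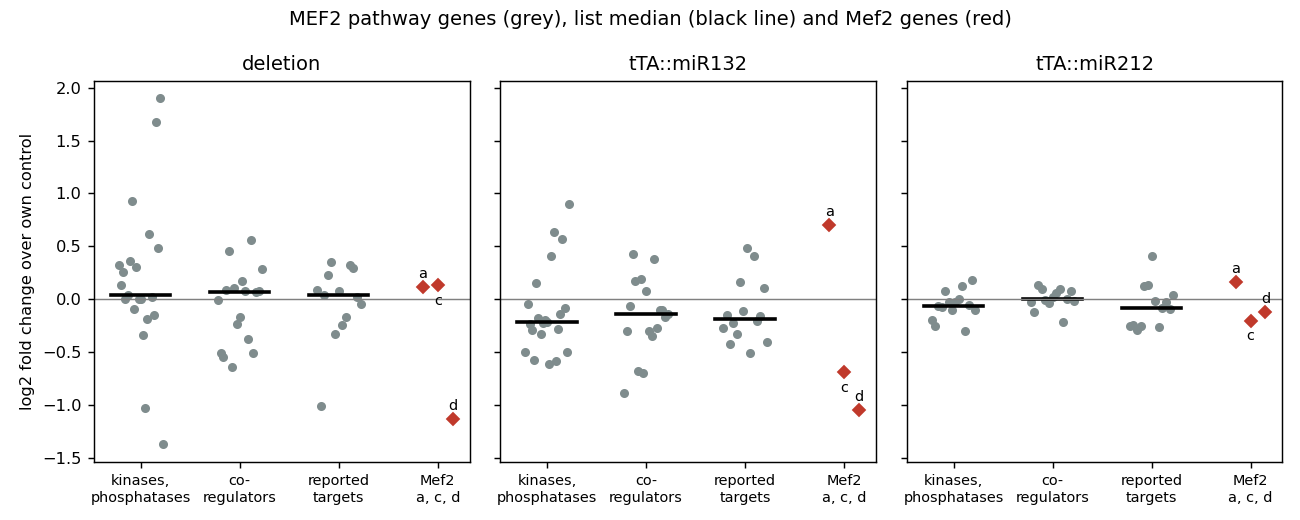
Log2 fold change over the own controls (vertical axis, edgeR) of each measured gene of the 3 MEF2 pathway lists (grey points, black line at the median) and of Mef2a, Mef2c and Mef2d (red, lettered a, c and d) in the 3 comparisons. The list medians lie at 0.04, 0.07 and 0.04 in the deletion, at -0.22, -0.14 and -0.19 under tTA::miR132 and at -0.06, -0.00 and -0.08 under tTA::miR212.

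Of the 3 Mef2 promoters in the RefSeq table (GRCm38.p6, 250 bases before to 50 after the start), that of Mef2a held the MEF2 consensus motif on either strand, as did 3.704% of 27025 promoters. Among the lists, 1 of 10 targets with a promoter (Jun), 1 of 13 co-regulators (Hdac5) and 0 of 14 kinases and phosphatases held it.

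Mef2c and Mef2a lay on opposite sides of their table means in 12 of 14 libraries. Over these libraries, with log2(CPM + 1) of each gene taken relative to its mean in each table, the Pearson correlation between them was -0.736 (-0.686 without deletion library 1), and Mef2a ranked 4136th among the 4152 genes compared by likeness to Mef2c. The correlation of Mef2d with Mef2a was -0.175, and -0.816 without deletion library 1, and with Mef2c -0.003, and 0.442 without that library. The libraries of a table share depth, preparation and a group difference, so these values describe the libraries and are not tests. They include the tTA::miR132 libraries, whose Mef2c change chose the family, and values without those libraries are not given here.

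The 5 genes most like Mef2c were Homer1 (r = 0.896), the postsynaptic scaffold and itself on the target list, Arpp21 (0.843), a phosphoprotein gene of forebrain neurons, the potassium channel subunit gene Kcnv1 (0.841), Glul (0.840), the glutamine synthetase of astrocytes, and Tacc1 (0.835). Without deletion library 1 Homer1 had 0.878 and ranked second after Etl4 (0.880). The tTA::miR132 libraries of the contrast that chose the family enter these correlations too. The 5 most like Mef2a were Vps13d (0.921), Wdr26 (0.905), Zfp512 (0.898), Ahcyl2 (0.896) and Fry (0.881), and those most like Mef2d were Ddi2 (0.940), Rad23b (0.933), Serinc3 (0.929), Lrp3 (0.928) and Daam2 (0.926). Vps13d and Rad23b were the genes of the last 2 sets that stayed among the top 5 without deletion library 1, at 0.908 and 0.920.

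**Figure D5:**
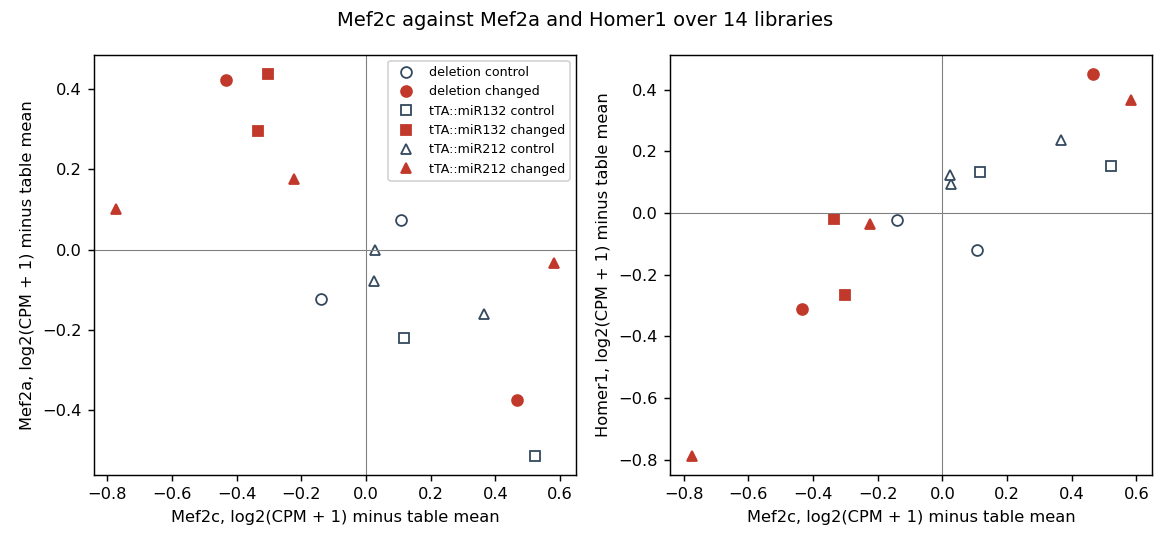
Log2(CPM + 1) of Mef2c relative to its mean in each table (horizontal axes) against the same for Mef2a (left) and Homer1 (right) in 14 libraries, with filled symbols for the deletion and transgenic libraries and open ones for controls. Mef2a lies high where Mef2c is low (r = -0.736) and Homer1 follows Mef2c (r = 0.896). Both values include the tTA::miR132 libraries, whose Mef2c change chose the family.

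Under tTA::miR212, 5 of the 13 measured target genes (Homer1, Arc, Nr4a1, Egr1 and Egr3) had, like Mef2c, library 1 above every control and libraries 2 and 3 below every control, as did 2.08% of all genes. The pattern was picked after the Mef2c values were seen, so these shares are a description. Homer1 had 51.8, 22.7 and 39.0 CPM in transgenic libraries 1, 2 and 3 and 42.7, 43.6 and 47.3 CPM in the controls. Arc, a gene switched on by synaptic activity, had 332, 101 and 76.3 CPM against 213, 212 and 177 CPM. Nr4a1 had 131, 32.9 and 30.1 CPM against 77.8, 86.0 and 62.7 CPM, and Egr1 298, 83.7 and 131.8 CPM against 185, 218 and 198 CPM. Egr3 had 44.8, 22.5 and 21.8 CPM against 29.9, 39.5 and 38.1 CPM. The other 8 targets did not have the pattern: the immediate-early gene Jun had 87.7, 86.9 and 76.8 CPM against 76.5, 74.8 and 79.1 CPM, and Klf6 lay above every control in all 3 libraries. Their part in the Mef2c values was not tested.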

How the data were processed

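Raw read counts per gene or transcript were taken from the 3 tables the authors deposited. Per the design text, reads were aligned to mm9 with Bowtie 0.12.7 and custom R scripts. That text also names Cufflinks 1.2. How reads were counted, with which strand setting and gene filter, is not stated there. The authors' deposited score columns (signed folds) and ratio columns (folds) were not used, nor were 14 scaled copies of the count columns. The authors' deposited p-values and q-values are quoted by name.

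CPM are counts divided by the column total. Each table was fitted on its own with edgeR 4.0.16 in R 4.3.3 (TMM factors, filterByExpr, robust quasi-likelihood test, Benjamini-Hochberg over all genes), with group as the single term and 1 row per symbol, that with the highest mean count. DESeq2 1.42.0, limma 3.58.1 (voom), other scalings, no filter, a replicate block and leaving out each library were alternatives. The code was tested on counts simulated with the same small spread for every table, close to that of the tTA::miR212 table. The spread in the deletion and tTA::miR132 tables was far larger, so the simulation does not show what the fit can recover there. The members and lists were chosen with earlier results of these data known. From each list the 3 measured genes with the smallest p in each comparison are named, except 1 that is not reported here. Likeness is Pearson's r over 4152 genes. Exon lengths and 3′ ends come from GENCODE vM1. Starts of the RefSeq rows count from 0 and were shifted by 1.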

Additional observations from a re-analysis of the deposited data

How the results depend on the processing

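The count of genes past the threshold, 0 in each comparison, was 5 with DESeq2 and 1 with limma-voom in the deletion, 39 and 3 under tTA::miR132, and 0 with both under tTA::miR212. With each library left out in turn it ran from 1 to 4527 in the deletion (4527 without deletion library 2, 8 without library 1), from 0 to 111 under tTA::miR132 (111 without control library 1, 4 without transgenic library 2) and from 0 to 18 under tTA::miR212 (18 without transgenic library 1). Where that left 1 library in a group, it was assumed to vary like the other group. Leaving out 1 library moved the deletion log2 fold changes of Mef2a between -0.29 and 0.44, of Mef2c between -0.44 and 0.55 and of Mef2d between -2.35 and -0.48, so the signs of Mef2a and Mef2c depended on single libraries; Mef2c and Mef2d passed the edgeR test without deletion library 2. Under tTA::miR132 the ranges were 0.54 to 0.90 for Mef2a, -0.85 to -0.50 for Mef2c and -1.75 to -0.40 for Mef2d. Under tTA::miR212 they were 0.11 to 0.21, -0.64 to 0.0772 (the latter without transgenic library 2) and -0.17 to -0.07. DESeq2's size factors, raw library totals, no filter, DESeq2, limma-voom and, for tTA::miR212, every transcript row in the fit kept the sign of all member values. Deviations of libraries with the same number correlated at 0.018 in the deletion, 0.010 under tTA::miR132 and -0.083, 0.021 and -0.034 under tTA::miR212. In a group of 2 libraries the deviations are equal and opposite. The correlations therefore cannot decide whether libraries with the same number were prepared together. With the replicate block the count was 0, 1 and 1 and Mef2c had 0.06, -0.68 and -0.25, in that order of comparisons. Depth limits Mef2d most, with 33 counts in deletion library 1.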
